A study of Mus musculus with 2 samples.

Results

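Heat shock high macrophages are the peritoneal macrophages with the most transcripts of the inducible chaperone genes Hspa1a, Hspa1b and Hspb1. They were chosen from 2 single-cell RNA libraries, 1 of Ankrd22-/- (knockout) mice made with CRISPR/Cas9 and 1 of Ankrd22+/+ (wild type) mice, each from F4/80+ cells that were sorted out of peritoneal lavage fluid. F4/80 is the macrophage surface antigen encoded by Adgre1, and Ankrd22 encodes an ankyrin repeat protein. The labels give no age, sex, strain, treatment or number of animals for either library, and they name no other allele. In each library the 5% of cells with the highest summed level of the 3 genes were taken, in unique molecular identifiers (UMIs, counted transcripts) per 10000 UMIs of the cell. They were set against the 50% with the lowest level in the same library, called low cells here. This gave 315 heat shock high cells of 6309 knockout cells and 310 of 6218 wild type cells, or 625 of 12527 in all, with 3154 knockout and 3109 wild type low cells.

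Cells under proteotoxic stress activate heat shock factor 1, a transcription factor that is held inactive by chaperones and, once released, binds repeated GAA and TTC elements in its target promoters. Its targets include the inducible HSP70 proteins encoded by Hspa1a and Hspa1b, which refold damaged proteins with J-domain partners such as Dnajb1 and exchange factors such as Bag3 and Hsph1, and the small heat shock protein encoded by Hspb1, which holds unfolded proteins.

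The promoters of the 3 genes that chose the cells are shown because all 3 hold paired GAA and TTC elements. Each line gives the 250 bases before the gene's start, from the RefSeq promoter table (GRCm38.p6), 5′ to 3′ on the gene's strand, with matches to GAANNTTC or TTCNNGAA in capitals.
Hspa1a, chr17:34972157-34972406, minus strand: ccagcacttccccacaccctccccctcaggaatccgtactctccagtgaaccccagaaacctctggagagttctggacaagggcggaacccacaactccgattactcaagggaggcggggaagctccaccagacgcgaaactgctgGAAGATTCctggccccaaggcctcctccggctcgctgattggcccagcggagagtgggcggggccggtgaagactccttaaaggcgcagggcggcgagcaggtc
Hspa1b, chr17:34959239-34959488, minus strand: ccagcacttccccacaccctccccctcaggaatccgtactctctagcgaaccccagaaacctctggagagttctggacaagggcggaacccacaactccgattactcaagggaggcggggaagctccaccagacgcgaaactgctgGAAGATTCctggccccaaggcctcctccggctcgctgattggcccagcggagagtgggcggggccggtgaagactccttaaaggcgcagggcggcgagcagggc
Hspb1, chr5:135887669-135887918, plus strand: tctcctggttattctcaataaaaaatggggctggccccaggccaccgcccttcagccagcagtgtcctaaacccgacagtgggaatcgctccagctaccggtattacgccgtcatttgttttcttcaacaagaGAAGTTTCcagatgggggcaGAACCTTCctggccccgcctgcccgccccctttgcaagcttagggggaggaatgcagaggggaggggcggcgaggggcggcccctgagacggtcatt

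The Hspa1a and Hspa1b windows were identical at 247 of 250 bases (98.8%), and both held GAAGATTC from 104 to 97 bases before the start. The Hspb1 window held GAAGTTTC from 117 to 110 and GAACCTTC from 97 to 90 bases before the start. Among genes not used in the choice, Hsph1 held TTCTCGAA from 33 to 26 bases before the start of its first listed window. The upstream windows of Dnajb1 and Bag3 held neither motif. Downstream, Bag3 held GAAGTTTC at bases 43 to 50 from the start, and Hsph1 also held matches there. Both motifs are palindromes, so each search covers both strands, and matches of the 2 motifs may overlap. Either motif was found upstream in 9 of 25 matched genes of the chaperone list (36.0%) and 3 of 23 immediate early genes (13.0%), against 12.8% of all 32851 windows and 14.5% of 27025 genes. A match describes letters in this window and is not evidence of binding.

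Each genotype has 1 library, so there are no replicates and no test was made. Every difference below is one between these cells or libraries, ratios are on the scale of log2(CPM + 1), where CPM is the UMIs of a class of cells scaled to a total of 1000000, and 95% intervals cover counting error only and are taken without the added 1 CPM. The libraries held 110956482 UMIs in knockout and 96869041 UMIs in wild type barcodes. Ankrd22 had 0 UMIs in 6706 knockout and 0 in 6315 wild type barcodes, which allows a share of barcodes with a UMI of up to 0.0447% and 0.0475%, so it does not check the genotype labels. Of the kept barcode sequences 15 occurred in both libraries, and 0 of these were heat shock high in both.

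The heat shock level was spread continuously, with no gap at the threshold. The threshold was 10.2 UMIs per 10000 in the knockout and 5.30 among wild type cells. The 3 knockout cells just inside lay at 10.17 to 10.19 and the 3 just outside at 10.14, while the 3 wild type cells just inside lay at 5.30 to 5.31 and the 3 just outside at 5.26 to 5.29. Of all kept cells, 2203 among knockout cells (34.9%) and 2660 among wild type cells (42.8%) had no UMI of the 3 genes.

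The 2 libraries differed in shape: knockout cells were more often at a moderate level, and wild type cells more often at a very high level. At 5 or more UMIs per 10000 lay 12.2% of the knockout cells (95% interval 11.4 to 13.0) and 5.16% of the wild type cells (4.63 to 5.74). At 20 or more lay 1.54% of knockout cells (1.25 to 1.87) and 1.99% of wild type cells (1.66 to 2.37), so that these intervals overlap. At 50 or more lay 4 knockout cells and 50 wild type cells, and at 100 or more 0 of 6309 knockout cells, which allows a share of up to 0.0476% at 3 counts (exact upper bound 0.0585%), and 18 wild type cells. The highest cell reached 59.3 per 10000 among knockout cells, with 39 UMIs of the 3 genes among 6580, and 260 among wild type cells, with 337 UMIs among 12951. By the wild type threshold, 11.5% of knockout cells (10.7 to 12.3) would be heat shock high, and by the knockout threshold 2.91% of wild type cells (2.51 to 3.36).

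**Figure D1:**
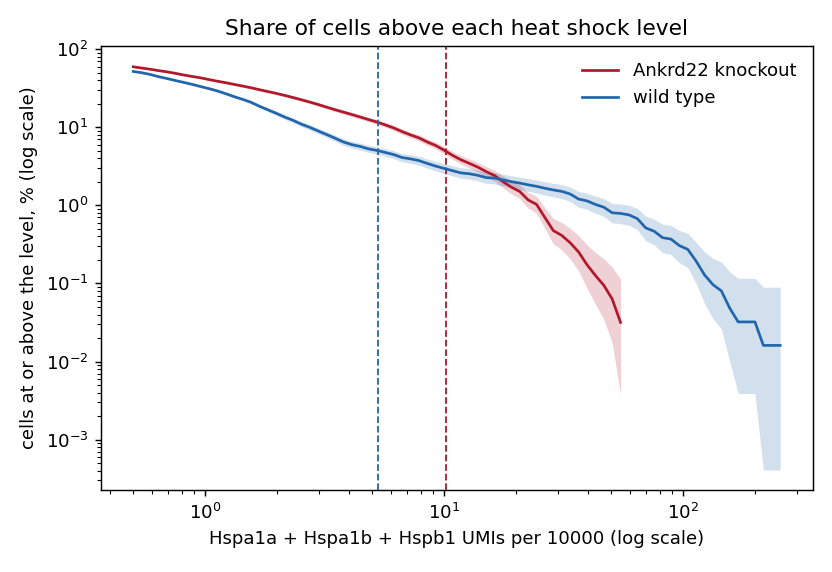
Share of kept cells at or above each summed level of Hspa1a, Hspa1b and Hspb1 in UMIs per 10000 (both axes logarithmic) for Ankrd22 knockout and wild type cells, with 95% exact binomial bands and the threshold of each library as a dashed line. The knockout curve lies above the wild type curve at 5 per 10000 (12.2% against 5.16%) and below it at 30 per 10000 (0.444% against 1.53%).

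The 3 genes that chose the cells are given as a description. Among heat shock high cells the median level was 16.0 per 10000 among knockout cells (quartiles 11.9 and 22.0) and 13.4 among wild type cells (7.87 and 35.5). Hspa1a stood at 892 CPM in knockout heat shock high cells against 8.21 CPM in knockout low cells, and at 1411 CPM in wild type heat shock high cells against 4.1 CPM in wild type low cells. Hspa1b stood at 709 against 6.89 CPM in the knockout and at 1060 against 4.27 CPM among wild type cells. Hspb1 stood at 207 against 4.99 CPM in the knockout and at 564 against 1.65 CPM among wild type cells.

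The UMIs of these genes were more concentrated in wild type cells. The heat shock high cells held 39.2% of all UMIs of the 3 genes among knockout cells (10165 of 25955) and 65.3% among wild type cells (12979 of 19888). The top 1% alone, 63 knockout and 62 wild type cells, held 13.1% in the knockout and 38.8% among wild type cells. Over all kept cells the libraries lay close together, at 109 CPM of Hspa1a in knockout and 89.9 CPM in wild type cells, 92.9 and 78.6 CPM of Hspa1b, and 34.2 and 37.8 CPM of Hspb1.

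Most heat shock high cells carried both HSP70 genes, and fewer carried Hspb1. Hspa1a and Hspa1b were detected together in 302 knockout and 239 wild type cells, Hspb1 in 155 knockout and 136 wild type cells, and all 3 in 149 knockout (47.3%) and 99 wild type cells (31.9%). Hspb1 without either HSP70 gene was seen in 0 knockout and 10 wild type cells. Some wild type members rest on few molecules: 17 had 1 or 2 UMIs of the 3 genes and 19 had 3 or 4, against 3 and 2 knockout cells. Hspa1a and Hspa1b are near copies, sharing 49.3% of the 90-base windows of Hspa1a and 52.3% of those of Hspa1b, but 0 of the 411 windows in the last 500 bases, where 3' libraries read most.

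Median depth differed little between the classes. Heat shock high cells had a median of 17060 UMIs and 3695 genes among knockout cells, against 15844.5 UMIs and 3490 genes in low cells. In the wild type library the medians were 13467.5 UMIs and 2985.5 genes in heat shock high cells, against 14219 UMIs and 3051 genes in low cells. The median mitochondrial share was 1.5% in heat shock high against 1.51% in low cells of the knockout library, and 0.649% against 0.709% among wild type cells.

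Few genes other than the 3 differed by 2-fold. In the knockout library 5141 genes reached 20 CPM in one of the classes, of which 9 (0.175%) were higher by 2-fold or more in heat shock high cells and 6 (0.117%) lower by as much. Of 4740 such genes in wild type cells, 11 (0.232%) were higher and 3 (0.0633%) lower by that rule. The higher genes of both libraries were Bag3, Dnajb1, Hsph1, Jun and Gadd45g, which are 55.6% of the knockout and 45.5% of the wild type list. Bag3, Dnajb1 and Hsph1 encode HSP70 partners, Jun a subunit of the AP-1 transcription factor, and Gadd45g a stress-inducible growth arrest protein. Higher among knockout cells by this rule were also Atf3, a stress-inducible transcription factor, the small nucleolar RNA host gene Snhg12 and the unnamed models D830025C05Rik and Gm48565. Gm48565 was under 20 CPM in both wild type classes and so was not counted there, although its wild type ratio, given below, was past 2-fold. Higher among wild type cells were also Hsp90aa1 and Dnaja1, both chaperone genes, and Txnip, Ppp1r10, Hcar2 and Isg15. Lower in both was the linker histone gene Hist1h1b, with Hist1h1e, Hist1h2ap, Ube2c, Marco and Hbb-bs lower among knockout cells and the mitotic genes Ccnb2 and Cenpa among wild type cells. Under TMM and under median of ratios scaling 10 wild type genes were higher and 5 lower. A gene past 2-fold in 1 library and not in the other is not shown to differ between them, and the difference was not tested.

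**Figure D2:**
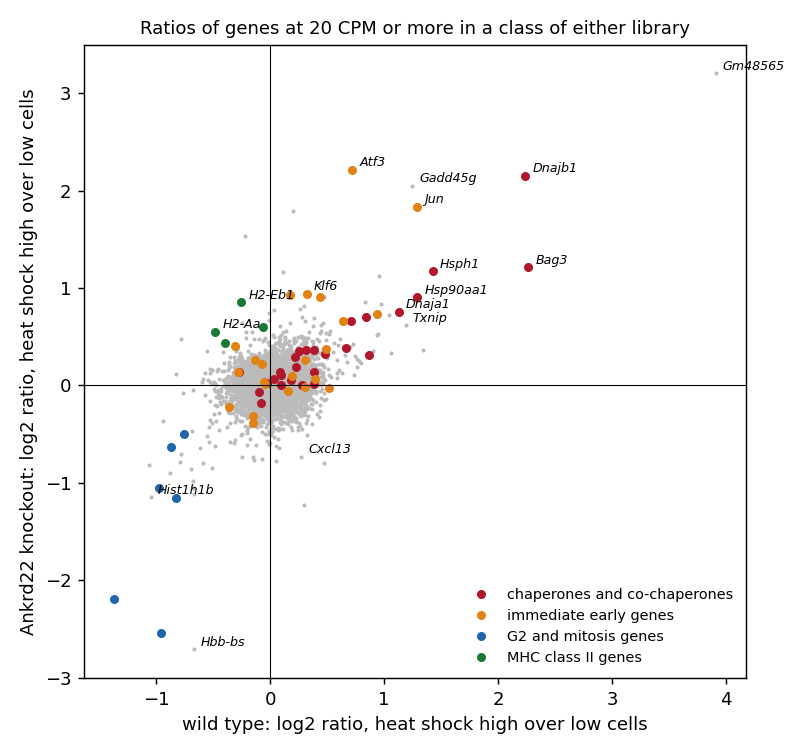
Log2 ratio of CPM in heat shock high over low cells for each gene at 20 CPM or more in a class of either library, in the knockout (vertical axis) against the wild type library (horizontal axis), without the 3 genes that chose the cells. Dnajb1 (2.15 in the knockout, 2.24 among wild type cells), Bag3 (1.21 and 2.26) and Jun (1.83 and 1.29) stand apart from the mass of genes around 0, and the genes of G2 and mitosis lie below 0 in both.

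Among the J-domain proteins, which deliver clients to HSP70, Dnajb1 had the highest ratio. It stood at 157 CPM in heat shock high cells against 34.5 CPM in low cells of the knockout library (log2 ratio 2.15, 95% interval 2.07 to 2.30), and at 225 against 47.0 CPM among wild type cells (2.24, 2.15 to 2.37). Dnaja1 followed, at 388 against 229 CPM in the knockout (0.76, 0.69 to 0.83) and 647 against 295 CPM among wild type cells (1.13, 1.07 to 1.19). Dnajb4 was lower in level, at 32.9 against 19.9 CPM (0.70) in the knockout and 34.4 against 18.8 CPM (0.84) among wild type cells. Dnajb6 and Dnajc7 had ratios of 0.00 and 0.00 in the knockout, and of 0.10 and 0.28 among wild type cells, so the family was not uniformly higher.

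Partners that release nucleotide or clients from HSP70 included 2 of the highest genes. Bag3, a co-chaperone that links HSP70 to selective autophagy, stood at 42.3 against 17.7 CPM in the knockout (1.21, 1.04 to 1.46) and at 88.4 against 17.6 CPM among wild type cells (2.26, 2.15 to 2.5). Low cells of both libraries thus had similar Bag3, and heat shock high cells of the wild type library had the higher level. Hsph1, an HSP110 exchange factor, stood at 53.7 against 23.3 CPM in the knockout (1.17, 1.02 to 1.39) and 122 against 44.6 CPM among wild type cells (1.43, 1.31 to 1.59). Its relative Hspa4 had 117 against 116 CPM (0.01) in the knockout and 92.2 against 70.5 CPM (0.38) among wild type cells. Bag1, another exchange factor, was near 0 at -0.07 in the knockout and -0.10 among wild type cells.

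The constitutive HSP70 gene Hspa8 stood at 950 CPM in heat shock high against 599 CPM in low cells of the knockout (0.66, 0.62 to 0.71), and at 1733 against 1062 CPM among wild type cells (0.71, 0.67 to 0.74). Of the cytosolic HSP90 pair, the inducible Hsp90aa1 had the higher ratio, 431 against 230 CPM in the knockout (0.91, 0.85 to 0.97) and 747 against 305 CPM among wild type cells (1.29, 1.24 to 1.35). The constitutive Hsp90ab1 had 1884 against 1510 CPM in the knockout (0.32) and 2153 against 1540 CPM among wild type cells (0.48). The HSP90 co-chaperones Stip1 (0.37 in the knockout and 0.39 among wild type cells), Ahsa1 (0.30 and 0.22) and Chordc1 (0.13 and 0.39) were slightly above 0, and Cdc37 (0.07 and 0.03) and Sugt1 (-0.18 and -0.08) near or below it.

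The mitochondrial chaperonin pair had its larger ratios among wild type cells. Hspd1, which encodes HSP60, stood at 206 against 165 CPM in the knockout (0.32, 0.23 to 0.41) and at 256 against 140 CPM among wild type cells (0.87, 0.78 to 0.97). Its partner Hspe1 stood at 311 against 239 CPM (0.38, 0.31 to 0.45) in the knockout and 428 against 269 CPM (0.67, 0.60 to 0.74) among wild type cells. These intervals of the knockout and wild type ratios do not overlap, although the 2 libraries were cut at different levels, as given above.

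Over the list of 30 chaperones and co-chaperones, 27 were at 5 CPM or more in the knockout and 28 among wild type cells. The list excludes the 3 genes that chose the cells. It holds the mitochondrial pair Hspd1 and Hspe1 and constitutive genes such as Hspa8 and Hsp90ab1. At least 1.5-fold higher in heat shock high cells were 7 of 27 in the knockout, where 1.1% of 8749 genes were, and 9 of 28 among wild type cells, where 1.12% of 8335 genes were. The mitochondrial pair is 2 of those 9. At least 1.5-fold lower were 0 in either library, against 0.926% and 0.984% of genes. The median log2 ratio was 0.30 (0.07 to 0.38) in the knockout and 0.34 (0.18 to 0.67) among wild type cells, while the median gene stood at 0.02 and 0.01. Above 0 were 25 of 27 in the knockout and 24 of 28 among wild type cells, or 21 and 23 under scaling by trimmed means (TMM). Hspb8 had 0 UMIs in heat shock high and in low cells of both libraries. Cryab, a small heat shock protein gene, stood at 0.533 against 1.01 CPM among knockout cells and 1.64 against 0.795 CPM among wild type cells.

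Hsf1, which encodes the main heat shock factor, stood at 12.4 CPM in heat shock high against 10.3 CPM in low cells of the knockout, and at 6.78 against 10.6 CPM among wild type cells, with log2 ratios of 0.26 (-0.10 to 0.64) and -0.58 (-1.24 to -0.11). Hsf2 stood at 17.4 against 15.0 CPM in the knockout and 11.5 against 8.81 CPM among wild type cells (0.21 and 0.35). Of the 8 measured genes of the factors and their regulators, 0 passed 1.5-fold in either direction in either library on the log2(CPM + 1) scale.

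**Figure D3:**
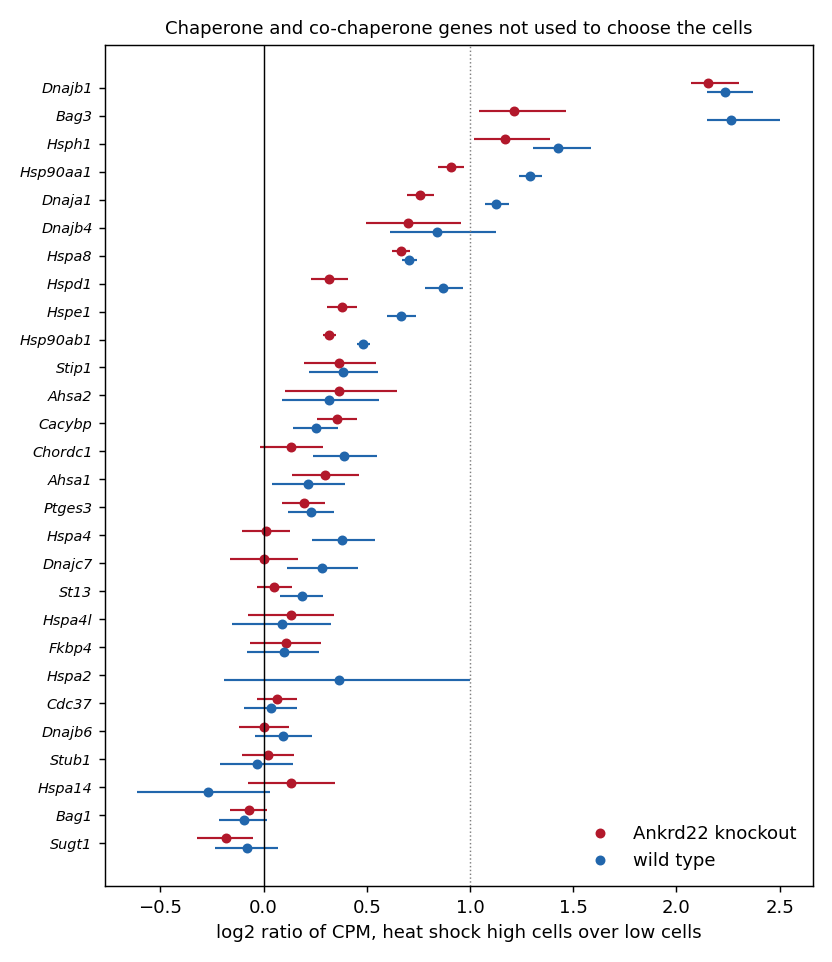
Log2 ratio of CPM in heat shock high over low cells for chaperone and co-chaperone genes not used to choose the cells, with 95% counting intervals, for knockout and wild type libraries, and a dotted line at 2-fold. Dnajb1, Bag3 and Hsph1 pass the dotted line in both libraries, and Hsp90aa1 (1.29) and Dnaja1 (1.13) among wild type cells.

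Cells were also ranked into 5 classes by the summed level within their library. In the knockout library Dnajb1 stood at 34.5 CPM in the lowest 50%, 39.7 CPM from 50 to 80%, 61.2 CPM from 80 to 95%, 140 CPM from 95 to 99% and 228 CPM in the top 1%. In the wild type library it stood at 47.0, 51.5, 59.2, 151 and 496 CPM in the same classes. From 50% to 99% the Dnajb1 levels of the 2 libraries were within 1.5-fold of each other in each class, and the top 1% of wild type cells stood above that of knockout cells.

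Of the 30 listed chaperones, 21 had the higher level in the top 1% of wild type cells and 8 in that of knockout cells. The same count was not made over all genes, and it is not shown to be particular to the top 1%. Some of the listed genes already differed in the same direction in low cells. There Hsph1 stood at 23.3 CPM in the knockout and 44.6 CPM among wild type cells, and Bag1 at 208 and 166 CPM. Bag3, at 17.7 and 17.6 CPM in low cells, did not. Bag3 stood at 35.5 CPM from 95 to 99% and 71.3 CPM in the top 1% of the knockout, against 51.8 and 222 CPM among wild type cells. Hsph1 was flat over these classes in the knockout, at 53.7 and 53.5 CPM, against 95.3 and 218 CPM among wild type cells. Hsp90aa1 stood at 426 and 453 CPM in the knockout against 622 and 1204 CPM among wild type cells. Hspd1 stood at 207 and 204 CPM in the knockout against 206 and 437 CPM among wild type cells. On the other side, in the top 1% alone, Bag1 stood at 199 CPM in the knockout against 131 CPM among wild type cells, St13 at 234 against 184 CPM, Cdc37 at 154 against 121 CPM and Hspa4 at 114 against 81.7 CPM. The top 1% starts at 24.5 per 10000 in the knockout and 44.0 among wild type cells, so cells of these classes are not at matched heat shock levels. With 1 level of 10 UMIs per 10000 for both libraries, a choice made after the data were seen, 321 knockout and 185 wild type cells were taken. The ratio was then 2.14 among knockout and 2.59 among wild type cells for Dnajb1, 1.21 and 2.66 for Bag3, 0.90 and 1.49 for Hsp90aa1, 1.82 and 1.62 for Jun, and 2.20 and 0.95 for Atf3.

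**Figure D4:**
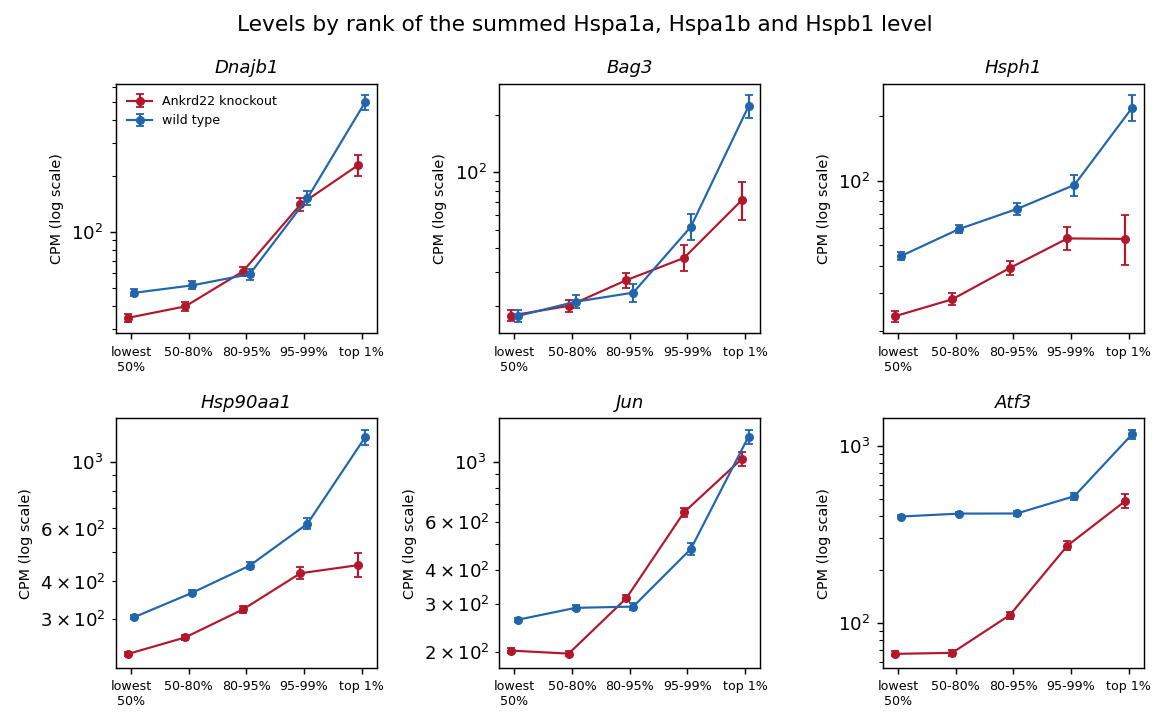
CPM (logarithmic axis) of 6 genes in 5 classes of cells ranked by the summed level of Hspa1a, Hspa1b and Hspb1 within each library, from the lowest 50% to the top 1%, with 95% Poisson intervals, for knockout and wild type cells. In the top 1% Dnajb1 stands at 228 CPM in knockout and 496 CPM in wild type cells, and Bag3 at 71.3 and 222 CPM.

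Immediate early genes, many of which encode transcription factors, are switched on within minutes of a stimulus. At least 1.5-fold higher were 7 of 24 measured members in the knockout and 6 of 27 among wild type cells, and at least 1.5-fold lower 1 and 0. Over all genes these shares were 1.1% and 1.12% higher, and 0.926% and 0.984% lower. Jun stood at 723 CPM in heat shock high against 202 CPM in low cells of the knockout (1.83, 1.79 to 1.89) and at 642 against 262 CPM among wild type cells (1.29, 1.23 to 1.35). Atf3 stood at 314 against 66.8 CPM in the knockout (2.21, 2.15 to 2.31) and at 657 against 399 CPM among wild type cells (0.72, 0.66 to 0.78). The wild type level of Atf3 was thus above that of knockout heat shock high cells even in low cells.

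Klf6, a zinc finger factor, stood at 395 against 206 CPM in the knockout (0.94) and 716 against 573 CPM among wild type cells (0.32). Socs3, an inhibitor of cytokine signalling, stood at 151 against 79.6 CPM (0.91) in the knockout and 152 against 112 CPM (0.43) among wild type cells. The orphan receptor gene Nr4a2 stood at 30.9 against 18.2 CPM (0.73) in the knockout and at 58.7 against 30.1 CPM (0.94) among wild type cells. The median of the list was 0.18 (-0.02 to 0.66) in the knockout and 0.19 (-0.05 to 0.49) among wild type cells, and the interval of each includes 0. The genes of the list given here were named for their large ratios. Above 0 were 17 of 24 measured members in the knockout and 18 of 27 among wild type cells, so the list was not uniformly higher.

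Protein degradation genes were mostly level. Of 22 measured genes of the ubiquitin and proteasome list, 1 in the knockout and 2 among wild type cells were at least 1.5-fold higher, beside 1.1% and 1.12% of all genes, and the medians were 0.10 and 0.02. The chaperonin TRiC and prefoldin list had 0 of 14 members at 1.5-fold in either library, with medians of 0.16 and 0.05.

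Genes of the stress response of the endoplasmic reticulum had smaller ratios. Hspa5, the HSP70 of that compartment, stood at 864 against 667 CPM in the knockout (0.37) and 1400 against 1016 CPM among wild type cells (0.46). Of 21 measured genes of the unfolded protein response, 1 in the knockout and 0 among wild type cells were at least 1.5-fold higher, beside 1.1% and 1.12% of all genes, with medians of 0.12 and 0.14. Hmox1, the haem oxygenase gene and a target of several stress factors, stood at 90.7 against 63.0 CPM in the knockout (0.52) and 217 against 113 CPM among wild type cells (0.94). Txnip, an inhibitor of thioredoxin, stood at 449 against 293 CPM in the knockout (0.62) and 318 against 139 CPM among wild type cells (1.19).

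The cytokine and chemokine list also holds Ptgs2 and Ccrl2, which encode neither. At least 1.5-fold higher were 4 of its 15 measured members in the knockout, where 1.1% of all genes were. Ptgs2 (1.54) was among them. In the wild type library 1 of 19 was, where 1.12% of all genes were. At least 1.5-fold lower were 1 and 2, beside 0.926% and 0.984% of all genes. Of the type I interferon genes 18 of 19 in the knockout and 14 of 18 among wild type cells were above 0. Their medians were 0.23 (0.11 to 0.36) and 0.19 (0.02 to 0.38), while the median gene stood at 0.02 and 0.01. At least 1.5-fold higher were 1 and 2 of them, beside 1.1% and 1.12% of all genes. Medians were -0.06 in the knockout and 0.01 among wild type cells for NF-kB feedback genes, 0.02 and 0.01 for NRF2, haem and metal genes, and -0.01 and 0.08 for p53 targets. Of 7 nuclear-retained RNAs 4 were measured, all 4 above 0 in both libraries. Of these, 0 in the knockout and 1 among wild type cells were at least 1.5-fold higher, beside 1.1% and 1.12% of all genes. Neat1 stood at 417 against 287 CPM in the knockout (0.54) and 124 against 91.1 CPM among wild type cells (0.43), and Malat1 at 12758 against 12018 CPM (0.09) and 5776 against 4563 CPM (0.34).

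Genes of G2 and mitosis were lower in heat shock high than in low cells of both libraries. At least 1.5-fold lower were 8 of 10 measured in the knockout and 13 of 14 among wild type cells, beside 0.926% and 0.984% of all genes, with medians of -0.99 (-1.93 to -0.50) and -0.89 (-1.0 to -0.76). Ube2c, a ubiquitin conjugase of mitotic exit, stood at 10.7 against 25.1 CPM in the knockout (-1.16) and 28.3 against 50.8 CPM among wild type cells (-0.82). Mki67, the proliferation marker, stood at 22.8 against 35.8 CPM (-0.63) in the knockout and 22.5 against 41.9 CPM (-0.87) among wild type cells. Over all kept cells, Ube2c stood at 20.1 CPM in the knockout and 36.0 CPM among wild type cells. Mki67 stood there at 27.8 and 33.3 CPM. Cells between the 2 classes were not summed on their own, so these ratios describe a difference from low cells only. Cells with 5 or more UMIs of the list per 10000 made up 1.90% of knockout heat shock high cells (6 of 315, 0.702 to 4.1) against 2.73% of knockout low cells (2.19 to 3.36), and 2.90% of wild type heat shock high cells (9 of 310, 1.34 to 5.44) against 5.89% of wild type low cells (5.08 to 6.77). The knockout intervals overlap, and those of the wild type library overlap slightly.

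Linker histone genes, which peak in S phase, were among the lowest ratios, and histone genes were not tested as a list. Hist1h1b stood at 25.2 against 57.3 CPM in the knockout (-1.15) and 18.0 against 38.3 CPM among wild type cells (-1.05). Over all kept cells it stood at 42.1 CPM in the knockout and 29.6 CPM among wild type cells, so the ratios are relative to low cells. After cells were thinned to 2000 UMIs, and chosen again, the wild type ratio of Hist1h1b was 0.39, on the other side of 0. Hist1h1e stood at 59.2 against 124 CPM (-1.05) in the knockout and 38.4 against 62.0 CPM (-0.68) among wild type cells. The S phase list itself had medians of -0.06 (-0.12 to 0.06) in the knockout and -0.35 (-0.52 to -0.15) among wild type cells.

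**Figure D5:**
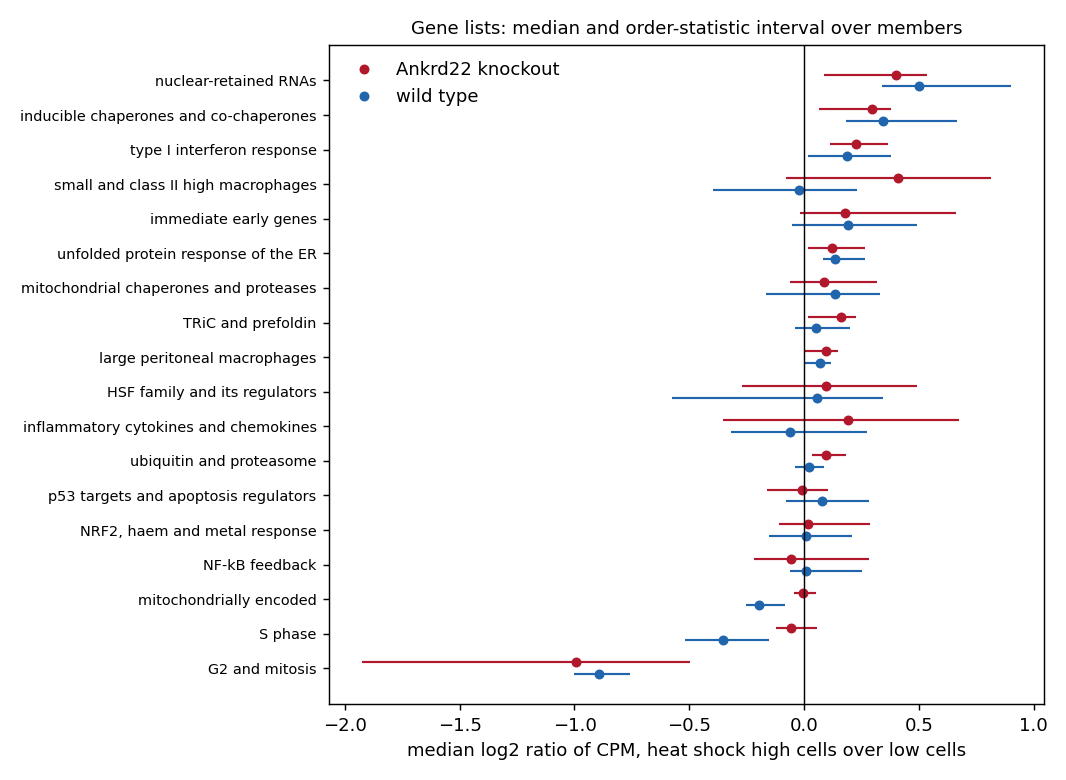
Median log2 ratio of CPM in heat shock high over low cells for lists with at least 4 measured members in both libraries, with an order-statistic interval over the members, for knockout and wild type libraries. The chaperone list lies above 0 (0.30 and 0.34) and the G2 and mitosis list below 0 (-0.99 and -0.89) in both.

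By their markers the heat shock high cells were macrophages. Adgre1 was detected in 310 of the 315 knockout cells (98.4%) and in 296 of the 310 wild type cells (95.5%), and Lyz2, the macrophage lysozyme gene, in 315 of 315 knockout cells and in each of the 310 wild type cells. The list of large peritoneal macrophages had medians of 0.09 in the knockout and 0.07 among wild type cells. Its transcription factor Gata6 stood at 183 CPM from 95 to 99% and 183 CPM in the top 1% of the knockout, against 168 CPM in low cells. Among wild type cells it stood at 140 and 149 CPM in these classes, against 145 CPM in low cells.

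Markers of other cells were scarce. Summed over their lists, T and NK cell genes reached 0.53 CPM in knockout and 0.23 CPM in wild type heat shock high cells, with 12 and 13 of 14 genes at 0 UMIs, and mast cell genes 0.36 and 0.23 CPM, with 7 and 7 of 8 at 0. B cell genes, most of which come from Bank1, summed to 34.3 against 36.9 CPM in the knockout and 49.8 against 49.4 CPM among wild type cells, with 7 and 5 of 12 genes at 0 in heat shock high cells. Neutrophil genes summed to 78.6 against 86.6 CPM in the knockout and 91.7 against 86.4 CPM among wild type cells. Erythroid and platelet genes summed to 14.2 CPM in heat shock high against 108 CPM in low cells of the knockout, where 1 low barcode held 2846 of the 3392 Hbb-bs UMIs (83.9%). Without that barcode Hbb-bs stood at 9.07 CPM in heat shock high against 10.4 CPM in low cells, so its place among the genes past 2-fold rests on 1 barcode.

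Class II genes, which present antigen, had higher levels in knockout heat shock high cells, and a few cells held most of their UMIs. Cd74, the invariant chain, stood at 412 against 272 CPM in the knockout (0.60) and 360 against 376 CPM among wild type cells (-0.06). In the top 1% of the knockout, 4 of 63 cells that were high in class II held 1191 of 1269 Cd74 UMIs. With cells high in class II left out, the knockout ratios lay below 0, at -0.21 for Cd74, -0.51 for H2-Aa and -0.18 for H2-Eb1. Cells high in class II, with 30 or more UMIs of 4 such genes per 10000, made up 2.22% of knockout heat shock high cells (0.898 to 4.52) against 2.79% of low cells (2.24 to 3.43), and 4.84% (2.73 to 7.86) against 4.79% (4.07 to 5.6) among wild type cells.

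Shares of cells with a UMI were compared after each cell was thinned to 2000 UMIs, which left out 6 knockout and 14 wild type heat shock high cells and 31 and 49 low cells. Dnajb1 was seen in 20.1% of thinned knockout heat shock high cells (15.7 to 25) against 5.12% of low cells (4.38 to 5.96), and in 25% (20.2 to 30.3) against 8.07% (7.13 to 9.09) among wild type cells. Unthinned, the shares were 67.3% against 38.4% in the knockout and 59.7% against 44.3% among wild type cells. Bag3 was seen in 8.09% (5.30 to 11.7) against 3.43% (2.82 to 4.13) of thinned cells in the knockout and 12.2% (8.67 to 16.4) against 3.89% (3.23 to 4.64) among wild type cells. Neither Dnajb1 nor Bag3 had a UMI in 71 of 315 knockout and 91 of 310 wild type heat shock high cells at full depth, so the partners were not seen in every cell. Barcodes with 3 or more B cell UMIs, left out of the choice, showed Dnajb1 in 6.52% of 46 thinned knockout barcodes (1.37 to 17.9, median depth 7186 UMIs) and 12.5% of 40 wild type barcodes (4.19 to 26.8, median depth 5703 UMIs).

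The 3 genes were also seen together when 1 of them did not take part in the choice. With the top 5% taken by Hspa1a and Hspa1b alone, Hspb1 stood at 166 CPM in those cells against 19.4 CPM in low cells of the knockout (3.03, 2.97 to 3.23), and at 464 against 13.6 CPM among wild type cells (4.99, 4.96 to 5.23). With the top 5% taken by Hspb1 alone, Hspa1a stood at 346 against 86.6 CPM in the knockout (1.99, 1.92 to 2.08) and at 576 against 70.6 CPM among wild type cells (3.01, 2.95 to 3.10). These cells shared 28.6% of their number with the heat shock high cells in the knockout and 34.8% among wild type cells. Dnajb1 then had a ratio of 0.96 in the knockout and 1.07 among wild type cells, and Bag3 0.51 and 1.13, below the values by all 3 genes.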

How the data were processed

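The deposited files hold UMI counts per gene and barcode of called cells. Per the file headers, Cell Ranger 6.1.2 wrote them. The submitters' processing notes also name bcl2fastq, Seurat 4.1.0 and mm9, but each of the 55450 feature identifiers occurs in GENCODE release 21 (GRCm38), which was used for gene positions. RefSeq promoters are from GRCm38.p6.

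Barcodes with under 500 genes, over 10% mitochondrial UMIs or 3 or more summed Cd79a, Cd79b and Ms4a1 UMIs were left out, 397 in the knockout and 97 among wild type cells. Ties were broken by barcode letters. The members and lists were chosen with earlier results of these data known. No doublets were removed, since Scrublet called 0 knockout barcodes and 1 wild type barcode (0.0161%). As an alternative, the highest scores were removed at 0.8% per 1000 barcodes, which took 5.08% of knockout and 3.55% of wild type heat shock high cells. UMIs were summed per class and library and scaled to CPM, and 1 CPM was added before log2 ratios.

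Ratio intervals are exact conditional binomial, share intervals exact Clopper-Pearson (a share of 0 is given the limit at 3 counts), and list intervals order statistics over members, all at 95%. PCR duplicates are collapsed by UMI, and no interval covers variation between animals. Genes were counted at 2-fold from 20 CPM, and list members at 1.5-fold from a mean of 5 CPM. Named genes are the 12 highest and 12 lowest ratios per library from 50 CPM, without the 3 selecting genes, mitochondrial, ribosomal, immunoglobulin, haemoglobin and Y-linked genes, Xist, Ankrd22 and unnamed models, all chaperone and heat shock factor genes, and up to 4 members of each other list from 20 CPM. Isg15, Marco, Ccnb2, Cenpa, Hbb-bs, D830025C05Rik and Gm48565 were named after their values were seen. Scripts were tested on simulated data. Random steps used seed 0. Tools were scanpy 1.11.5, pandas 2.3.3, matplotlib 3.10.9, scipy 1.17.1 and numpy 2.4.6 under Python 3.11.15. A result on 1 gene of the lists is not reported here.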

Additional observations from a re-analysis of the deposited data

Results flagged for a closer look

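Of 93 named genes, 9 had log2 ratios of heat shock high over low cells on opposite sides of 0 in the 2 libraries, with counting intervals clear of 0. The difference between the libraries was not tested. Cxcl13, a B cell chemoattractant, had -0.74 in the knockout and 0.27 among wild type cells, and the ferritin gene Fth1 -0.33 and 0.11. The class II genes had 0.55 and -0.48 (H2-Aa), 0.43 and -0.40 (H2-Ab1) and 0.85 and -0.25 (H2-Eb1). Without cells high in class II the knockout values of H2-Aa and H2-Eb1 were -0.51 and -0.18. Nfkb1 had -0.22 and 0.25, and Tcp1, a TRiC subunit, 0.13 and -0.30. The mitochondrial genes mt-Cytb and mt-Nd1 had 0.03 and -0.21, and 0.05 and -0.26. Under TMM scaling the knockout values of mt-Cytb and mt-Nd1 were -0.02 and 0.0036, so that mt-Cytb was below 0 in both libraries.

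Barcodes left out of the choice also reached the heat shock threshold of their library. They were 13.0% of 269 knockout barcodes with over 10% mitochondrial UMIs, 14.1% of 269 knockout barcodes with under 500 genes, 21.7% of 23 wild type barcodes with over 10% mitochondrial UMIs, and 10.6% of 47 wild type barcodes with under 500 genes. Barcodes with 3 or more B cell UMIs reached it in 0 of 51 in the knockout and 4.88% of 41 among wild type cells. At the median depth of the barcodes other than the B cell ones 1 UMI gives between 13.9 and 15.7 per 10000, above both thresholds.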

How the results depend on the processing

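No paired analysis was possible because each genotype had 1 library and the labels carry no replicate numbers. The median chaperone ratio stayed above 0 under every alternative tried, between 0.17 and 0.32 in the knockout and between 0.25 and 0.36 among wild type cells. Counts of genes past 2-fold moved with how cells were chosen. The counts below are knockout higher (9 as reported), knockout lower (6), wild type higher (11) and wild type lower (3). With the top 2% they were 29, 10, 25 and 18. With the top 1%, chosen after seeing the data, they were 51, 26, 43 and 44. With the top 10%, wild type higher was 5. With Hspb1 alone, knockout higher was 0, wild type higher 2 and wild type lower 0. With Hspa1a and Hspa1b, knockout lower was 3 and wild type lower 6. Against all other cells, knockout lower was 2 and wild type lower 0. With a filter of 5 CPM they were 25, 31, 26 and 11, and with 50 CPM knockout higher was 5 and wild type lower 0. At 10 UMIs per 10000 in both libraries, also chosen after seeing the data, wild type higher was 22 and wild type lower 9. Wild type lower was 0 after thinning, 11 with doublets removed, 5 under TMM, 5 under median of ratios scaling, 5 with 0.1 CPM added and 1 with 5 CPM added. The share of knockout cells above the wild type threshold, 11.5%, was 1.54% for the top 2%, 21.1% for the top 10%, 12.8% by Hspa1a and Hspa1b, 7.13% by Hspb1, 24.4% after thinning, where the threshold is 1 UMI, and 0.127% for the top 1%. Of 3978 values of named genes under 17 alternatives, 3156 stayed within the interval, 820 moved and 2 called values turned round: Gadd45g in the knockout by Hspb1 (-0.54) and Hist1h1b among wild type cells after thinning (0.39). The cause was not tested. Turned round was counted only for the 30 values past 2-fold, and 21 of these were under 2-fold by Hspb1. Counting every value, between 0 and 36 of 234 lay on the other side of 0 under each alternative. The most were 36 by Hspb1, 30 for the top 1%, 26 for the top 2% and 26 after thinning. Under 10 UMIs of the 3 genes, membership of a cell rests on few molecules.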

Other observations

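The gene model Gm48565 (ENSMUSG00000110982, chromosome 9, 40820969 to 40822673 on the plus strand, GRCm38) was singled out after its values were seen. It stood at 30.6 CPM in heat shock high against 2.43 CPM in low cells of the knockout library, and at 17.5 against 0.236 CPM among wild type cells, with log2 ratios of 3.20 and 3.91. A UMI was seen in 88 of 315 heat shock high against 95 of 3154 low cells of the knockout, and in 34 of 310 against 8 of 3109 of the wild type library. In the annotation the model lies 10881 bases downstream of the end of Hspa8 on the same strand.

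Values of 4 other genes follow, of which Marco and Isg15 were chosen after their values were seen. Gadd45g, of the p53 list, stood at 25.4 CPM in heat shock high against 5.39 CPM in low cells of the knockout (2.05, 1.94 to 2.53) and at 42.3 against 17.3 CPM among wild type cells (1.25, 1.05 to 1.53). In cells chosen by Hspb1 alone its knockout ratio was -0.54. Marco, a scavenger receptor gene, stood at 13.3 against 32.5 CPM in the knockout (-1.23) and at 70.6 against 57.3 CPM among wild type cells (0.30). Isg15, an interferon-induced ubiquitin-like protein, stood at 19.4 against 14.8 CPM in the knockout (0.36) and at 27.1 against 10.1 CPM among wild type cells (1.34). Spp1, which encodes osteopontin, stood at 896 against 523 CPM in the knockout (0.78), where it was named by the rule, and at 2.34 against 2.26 CPM among wild type cells (0.04).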
